A study of Mus musculus with 4 samples.

Results

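The comparison described here set 2 cultures of neonatal mouse cardiomyocytes that received a microRNA with proliferative activity against 2 control cultures. All 4 libraries of the series took part. On the microRNA side stood 2 mimics of human sequence, hsa-miR-590-3p in one library and hsa-miR-199a-3p in the other, each given at 50 nM. On the control side stood cells that received transfection reagent alone (mock) and cells given cel-miR-67, a microRNA of Caenorhabditis elegans used as a control mimic at 50 nM. Every culture came from CD1 mice at postnatal day 1, was transfected by a reverse protocol with Lipofectamine RNAimax, and was collected after 72 h for RNA sequencing of total RNA. Each condition had 1 library, so the 2 libraries of a side are different treatments rather than replicates of one, and no value below has a replicate check within a condition. A gene belonged to the common response when its values in both microRNA libraries lay above both controls, or in both lay below both controls. Values are reads summed per gene symbol and given as CPM, the count per 1000000 reads of the library. The 13481 genes averaging 1 CPM or more were compared. By that rule 5923 of 13481 genes (43.9%) were members, 4255 above the controls (31.6%) and 1668 below them (12.4%). If the order of the 4 values were arbitrary, a share of 0.333 of genes would still be expected to meet the rule. Membership alone is therefore not evidence of a response.

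MicroRNAs guide Argonaute proteins to messenger RNAs through their seed, bases 2 to 8, and lower the level or translation of those messengers. Cardiomyocytes of newborn mice leave the cell cycle within days of birth: genes of DNA replication and mitosis, many of them driven by E2F factors or by the MuvB complex, are switched off while sarcomere and mitochondrial genes of the adult heart are switched on. In proliferating cells the same 2 sets of cycle genes are used at different times, E2F targets at the entry into S phase and MuvB targets before mitosis. The mouse microRNA that bears the name of one mimic is shown for its seed, in capitals, from RefSeq (GRCm38.p6), where it is encoded at chr1:162217883-162217904 on the plus strand and again at chr9:21496498-21496519 on the minus strand.
mmu-miR-199a-3p: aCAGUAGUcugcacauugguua

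Libraries held 31638930 to 38745528 reads assigned to transcripts, of which 67.6% to 68.7% were placed uniquely. Markers of the labelled cell type were abundant in every library. The 6 cardiomyocyte markers (Myh6, Tnnt2, Actc1, Ttn, Nppa and Ryr2) summed to 19130 RPKM (the RPKM of a record is its reads per kilobase, scaled to the library) in mock, 18010 with cel-miR-67, 12820 with hsa-miR-590-3p and 13450 with hsa-miR-199a-3p, and under either mimic all 6 of 6 lay below each of the controls. Of these, Tnnt2 and Myh6 rest almost wholly on reads shared with other records. Myh6 had 0.158% unique reads, and its order did not hold in them. Fibroblast markers summed to 1859 and 1843 RPKM in the controls and to 2065 and 2119 in the microRNA libraries, and smooth muscle and pericyte markers to 1493, 1863, 2009 and 2725 in the same order. Of the 5 fibroblast markers Col1a1 and Col1a2 lay above both controls, Postn lay below both, and Dcn and Pdgfra were lowest with hsa-miR-199a-3p. Of the 4 smooth muscle and pericyte markers Acta2, with 1454 of the 1493 RPKM in mock, lay above both controls, while Myh11, Rgs5 and Pdgfrb were not outside the range under both mimics. Endothelial markers summed to 53.6 to 76.8 RPKM, epicardial markers to 47.5 to 79.9 and macrophage markers to 1.49 to 3.58, and in each of these 3 the ranges of the 2 sides overlapped. Erythroid and neural markers summed to at most 0.41 RPKM, with Hbb-b1 and Sox10 at 0 reads in every library. In such bulk RNA fewer cells of a type and less RNA per cell cannot be told apart.

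**Figure D1:**
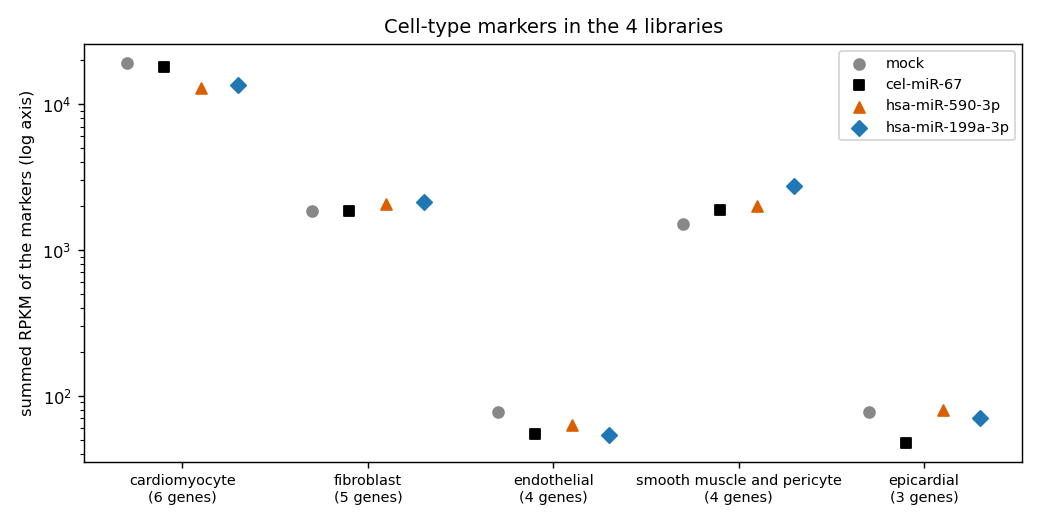
Summed RPKM (log axis) of the markers of 5 cell types, 1 point per library. The cardiomyocyte sum was 12820 and 13450 RPKM in the microRNA libraries and 18010 and 19130 in the controls, while the fibroblast sum, mostly Col1a1 and Col1a2, and the smooth muscle sum, mostly Acta2, were higher in the microRNA libraries.

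Most members of the common response lay close to the control range. The distance is given here as the gap, the ratio of the microRNA value nearer to the controls over the control value nearer to the microRNAs. For genes below the controls the gap is under 1, and the size steps that follow apply to its inverse. A gap of at least 25% was found for 942 genes above the controls (6.99%) and 189 below (1.4%). At 1.5 fold 319 genes (2.37%) lay above and 37 (0.274%) below, at 2 fold 35 (0.26%) and 10 (0.0742%), and at 3 fold 2 (0.0148%) and 0. Counting error alone was exceeded, by an exact conditional binomial 95% interval of the gap that left out 1, in 2044 genes above (15.2%) and 604 below (4.48%). The balance of the 2 directions followed the scaling: genes above made up 71.8% of the common response with library totals, 51.7% with TMM factors (2965 above, 22%, and 2769 below, 20.5%; 42.5% in either direction) and 50.3% with DESeq2 size factors. The median log2 ratio of the 2 sides over all genes was 0.08 with library totals and -0.004 with TMM.

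The test of the 2 sides asked whether the shift shared by both microRNAs was larger than the spread within the sides, which contains whatever differs between the 2 treatments of a side. With edgeR's quasi-likelihood test and Benjamini-Hochberg adjustment 0 of 13481 genes passed 0.05 in either direction, and the smallest adjusted p was 0.241. Unadjusted p-values under 0.05 were reached by 1160 genes above (8.6%) and 223 below (1.65%). DESeq2's Wald test passed 150 genes above (1.18% of 12696) and 44 below (0.347%) at an adjusted 0.05. Leaving out the hsa-miR-590-3p library gave 987 calls above and 675 below with edgeR, and leaving out any one of the other 3 libraries gave 0. For a single gene, an exact two-sided permutation test of 2 against 2 libraries cannot go below p = 0.333. Gene levels are therefore described below by their order across the libraries, and no gene is said to have changed.

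**Figure D2:**
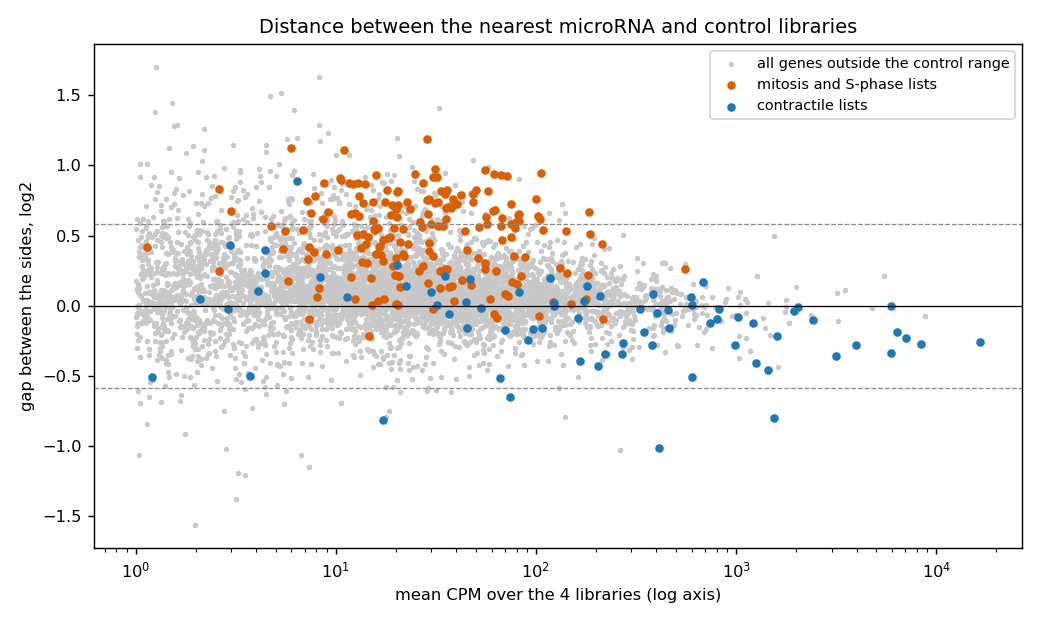
Gap between the sides (log2, vertical) against the mean CPM over 4 libraries (log axis, horizontal) for each gene outside the control range, with dashed lines at 1.5 fold. Genes of the mitosis and S-phase lists lie mostly above 0. They make up 4.3% of all genes above the controls and 25.1% of those at 1.5 fold or more. The contractile genes lie mostly below 0 at high levels.

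Genes farthest above the controls included a linker histone, enzymes that act on DNA and a ubiquitin ligase. H1fx, now named H1f10, encodes a replication-independent linker histone and had 4.01 CPM in mock, 3.65 with cel-miR-67, 12.7 with hsa-miR-590-3p and 12.5 with hsa-miR-199a-3p. Its 2 microRNA libraries were nearly level and its gap was 3.10 fold (95% counting interval 2.55 to 3.81). Neurl1b, a ubiquitin ligase that acts on Notch ligands, had 12.8, 16.2, 43.1 and 59.8 CPM in the same order, a gap of 2.66 fold (2.41 to 2.94). Neil3, a DNA glycosylase, had 3.22 and 3.24 CPM in the controls and 8.56 and 9.63 with the microRNAs. In H1fx and Neil3 the controls lay close together, and in Neurl1b cel-miR-67 lay above mock. Dtl, the substrate receptor through which a cullin ligase removes licensing factors in S phase, had 12.2 and 11.3 CPM in the controls and 29.7 and 28.0 with the microRNAs, a gap of 2.29 fold (2.04 to 2.58). Esco2, the acetyltransferase that establishes sister chromatid cohesion, had 4.93, 5.25, 14 and 12.4 CPM. Tk1, thymidine kinase of the salvage pathway, had 15.9, 16.6, 37.9 and 43.6 CPM, a gap of 2.28 fold (2.06 to 2.52). Of the last 3 genes, Dtl and Esco2 were highest with hsa-miR-590-3p and Tk1 with hsa-miR-199a-3p.

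Other genes by the same rule were Zcchc5 (now Rtl3), Nup210, Agbl2, Sept3, Dna2 and Ankle1, with gaps between 2.22 and 2.86 fold. Nup210, a membrane protein of the nuclear pore, had 4.36 and 4.76 CPM in the controls and 11.7 and 12.2 with the microRNAs. Dna2, a nuclease and helicase of replication and repair, had 3.57, 4.79, 10.8 and 14.3 CPM. Sept3, a septin best known from neurons, had 2.69 and 2.57 CPM in the controls, 6.18 with hsa-miR-590-3p and 14.2 with hsa-miR-199a-3p. Sept3 thus lay above both controls under both mimics and was much the highest with hsa-miR-199a-3p.

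Genes farthest below the controls included a second linker histone, secreted proteins and genes of the atrial or fetal heart. Hist1h1e, now H1f4, is a linker histone made in S phase and had 3.25 and 2.95 CPM in the controls, 0.987 with hsa-miR-590-3p and 0.749 with hsa-miR-199a-3p. Its gap of 0.338 (0.22 to 0.498) rests on 29 to 103 reads, and 79.4% of them were unique. Clu, the secreted chaperone clusterin, had 370 and 393 CPM in the controls, 181 with hsa-miR-590-3p and 113 with hsa-miR-199a-3p, a gap of 0.489 (0.474 to 0.504). With 4383 reads in its lowest library Clu is far better measured than Hist1h1e. Myl4, the atrial and fetal essential myosin light chain, had 564, 592, 279 and 222 CPM, a gap of 0.494 (0.482 to 0.507). Tnfrsf11b, the decoy receptor osteoprotegerin, had 4.74, 4.53, 1.97 and 1.70 CPM. Lad1, the anchoring filament protein ladinin, had 4.49, 5.84, 1.74 and 1.94 CPM. All 5 genes but Lad1 were lowest with hsa-miR-199a-3p.

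Nppa, the atrial natriuretic peptide and a marker of the fetal program, had 1926 CPM in mock, 2179 with cel-miR-67, 1104 with hsa-miR-590-3p and 972 with hsa-miR-199a-3p. Its gap was 0.573 (0.566 to 0.581). Tnnt1, slow skeletal troponin T, had 28.4, 20.3, 8.27 and 11.5 CPM, and Ppm1k, the phosphatase that activates branched-chain keto acid breakdown, had 22.5, 24.1, 11.9 and 13.0 CPM. Unlike Clu, these 2 genes were lowest with hsa-miR-590-3p. Ccdc63, Serpinb1c and Clic5 also belonged to the set, with gaps of 0.385, 0.596 and 0.577, and Clic5 is described later among the candidate targets. Xrcc4, the partner of DNA ligase IV in end joining, had 3.67, 4.17, 1.8 and 1.63 CPM, but 3.91% of its reads were unique, so reads shared with other records set its value.

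**Figure D3:**
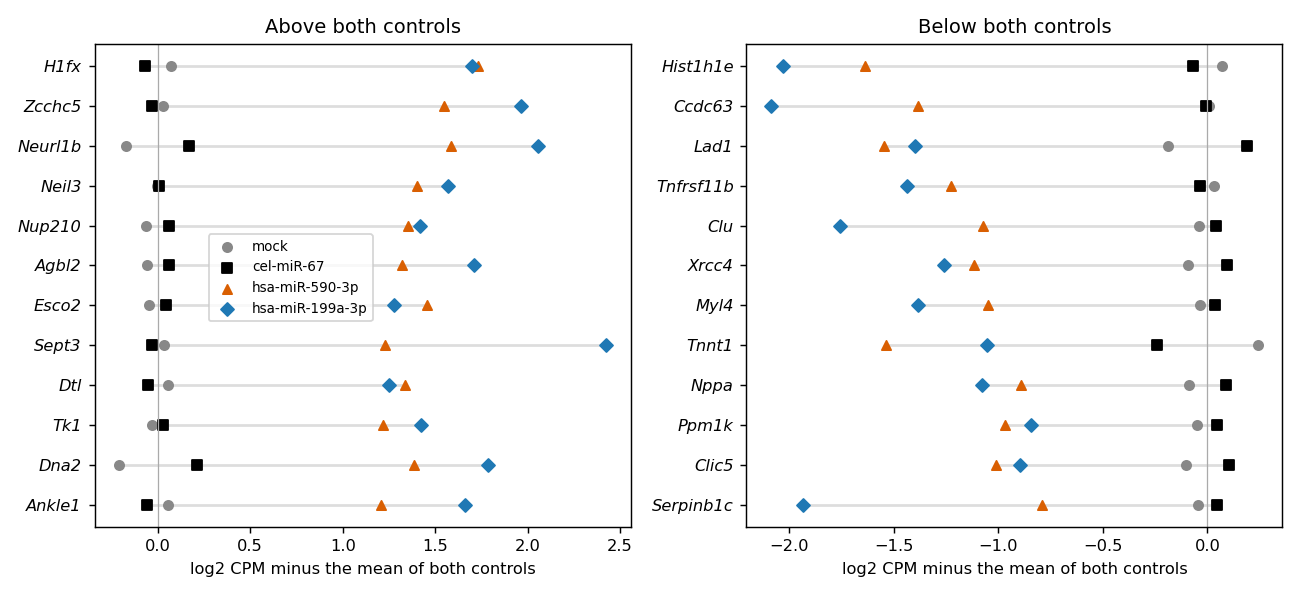
Log2 CPM of each library minus the mean of both controls for the 12 named genes with the largest gap above (left) and below (right) the controls, 1 point per library. In H1fx both mimics coincide, in Sept3 hsa-miR-199a-3p lies far beyond hsa-miR-590-3p, and the controls stay near 0 in every gene shown.

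Grouped by function, the lists of the cell cycle lay mostly above the controls and those of the sarcomere and of mitochondrial respiration more often below than above. The cell-cycle lists held 1.66% of all genes tested, 4.3% of the genes above the controls, 14.3% of those with a gap of at least 25% and 25.1% (80 of 319) of those with at least 1.5 fold. These lists are those of the spindle, cytokinesis, DNA replication, nucleotide synthesis, DNA repair and the entry into S phase. Among the 35 genes at 2 fold or more they held 3, but Dtl, Esco2, Dna2 and Neil3 are in none of the lists. No gene of these lists was among the 189 genes below the controls by at least 25%, and Xrcc4 is in none of the lists either. Such shares depend on how the lists were drawn up. List counts in the following paragraphs are to be read beside those of all genes tested. Of these, 31.6% lay above and 12.4% below with library totals, and 22% and 20.5% with TMM. The contractile lists held 1.13% of all genes tested and 10.8% (4 of 37) of those below the controls by at least 1.5 fold.

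**Figure D4:**
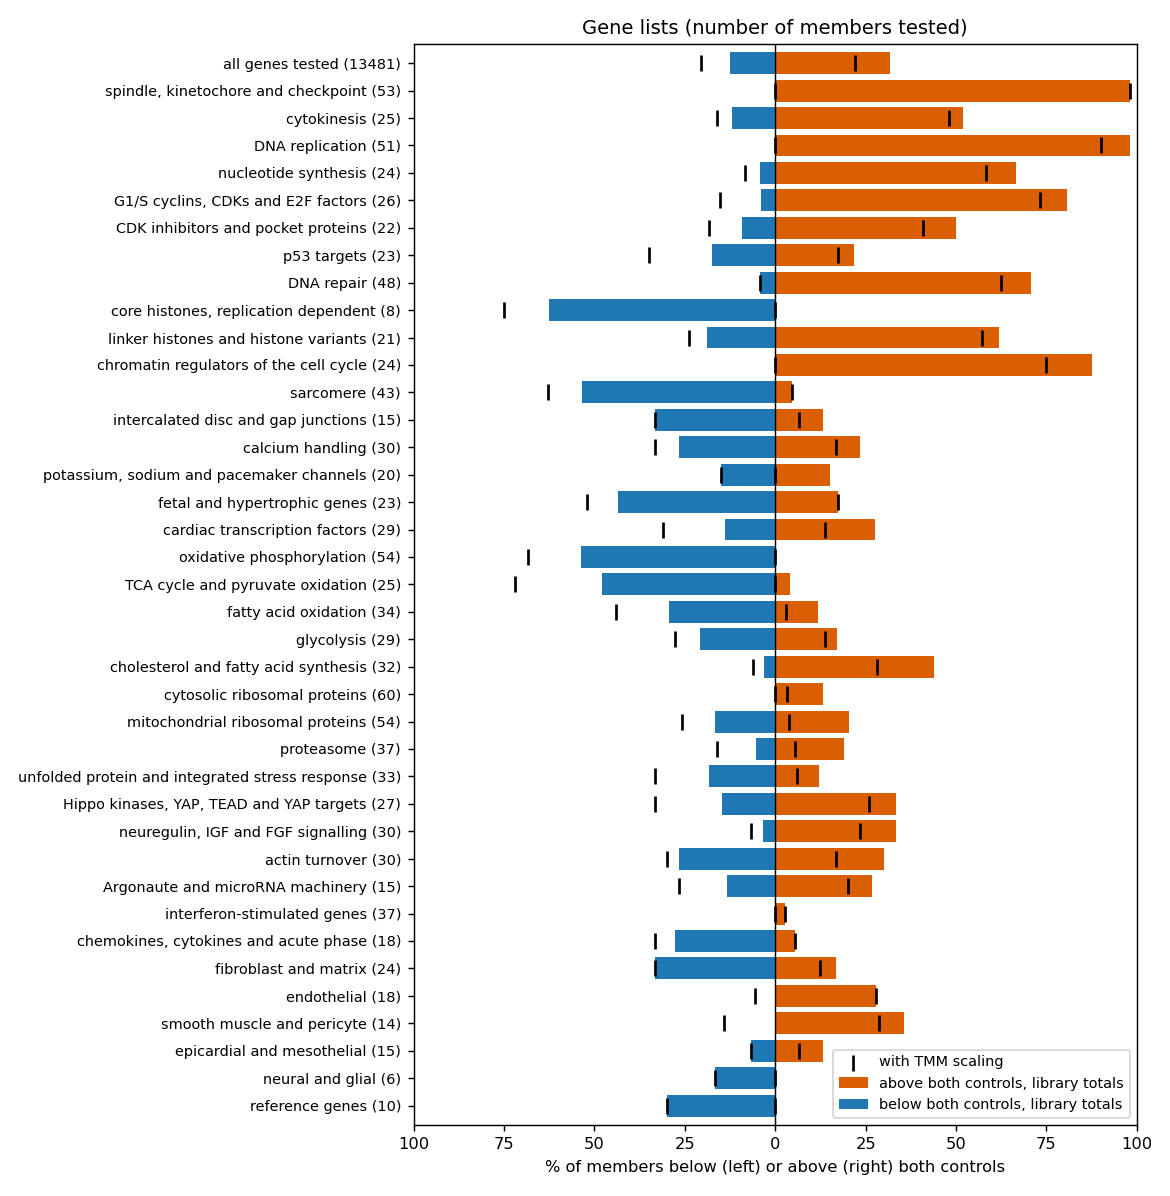
Share of each gene list's tested members that lay below (left, blue) or above (right, orange) both controls in both microRNA libraries with library totals, with black ticks for TMM scaling. The spindle and DNA replication lists reach 98.1% and 98% above against 31.6% of all genes, and the sarcomere and oxidative phosphorylation lists reach 53.5% and 53.7% below against 12.4%.

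Genes of the spindle, the kinetochore and the mitotic checkpoint lay above the controls almost without exception. Of 53 members, 52 lay above both controls in both libraries and 0 below, with library totals and TMM (49 and 0 in unique reads). Their median log2 ratio was 0.96 against 0.08 for all genes, 0.89 with hsa-miR-590-3p and 1.05 with hsa-miR-199a-3p. The gap was at least 1.5 fold in 37 of them, and DESeq2 passed 30. Cardiomyocyte markers were lower in the same 2 libraries, and their part in this result was not tested.

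Espl1, the separase that cuts cohesin at anaphase, had 16.6 and 18.9 CPM in the controls and 37.3 and 52.8 with the microRNAs, the widest gap of the list at 1.97 fold (1.79 to 2.17). Bub1b, the checkpoint kinase-like protein BubR1, had 27.2, 32.8, 64.1 and 97.2 CPM. Ccnb1, cyclin B1, had 44.5 CPM in mock, 22.5 with cel-miR-67 and 85.5 and 93.2 with the microRNAs, with 28.4% unique reads. Ccnb1 is the member of these 3 in which the controls differed most. Cenpa, the histone of the centromere, had 21.0, 21.9, 41.5 and 43.6 CPM. Cenpf, a kinetochore protein, had 38.9, 43.6, 103 and 83.2 CPM, and Top2a, topoisomerase II alpha, had 120, 134, 270 and 213. Both of these were highest with hsa-miR-590-3p. Mki67, the antigen Ki-67 and the most abundant member, had 151, 165, 320 and 223 CPM, again highest with hsa-miR-590-3p, a gap of 1.36 fold (1.31 to 1.40). Cdk1, the kinase that starts mitosis, had 40.7, 50.6, 78 and 100.4 CPM, and Plk1, a kinase of spindle assembly, had 30.2, 40.4, 59.4 and 76.9. The smallest gap was that of Bub3, with 67.9, 66.8, 76.2 and 93.2 CPM. Sgol1, the shugoshin that guards centromeric cohesion, was the member not outside the range: it had 8.25 and 9.22 CPM in the controls, 17.9 with hsa-miR-590-3p and 8.65 with hsa-miR-199a-3p.

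Of 25 cytokinesis genes tested 13 lay above the controls (52%) and 3 below (12%), against 31.6% and 12.4% of all genes. With TMM 12 lay above and 4 below. Their median log2 ratio was 0.26 with library totals. Racgap1, a subunit of the centralspindlin complex, had 35.0 and 40.6 CPM in the controls and 71.6 and 84.2 with the microRNAs. Kif23, the kinesin partner of Racgap1, had 20.6, 25.5, 45.4 and 52.3 CPM, and Cit, citron kinase, had 9.61, 9.84, 18.6 and 17.9. In all 3 the microRNA values were close to each other. Anln, the ring scaffold anillin, had 107, 110, 190 and 159 CPM. Myh9, non-muscle myosin IIA, had 1335 and 1650 CPM in the controls and 1618 and 1701 with the microRNAs, inside the range for hsa-miR-590-3p. Rock1, Vps4a and Pdcd6ip (0.179% unique reads) lay under the controls with gaps of 0.939 to 0.949. Cep55, which recruits the abscission machinery, had 13.3, 16.8, 24.8 and 12.8 CPM with 1.28% unique reads, so the mimics lay on opposite sides of the controls.

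Genes of DNA replication lay above the controls in 50 of 51 members and below in 0 (44 and 0 in unique reads). With TMM the count was 46, and the median log2 ratio was 0.77 (0.69 with TMM), 0.63 with hsa-miR-590-3p and 0.93 with hsa-miR-199a-3p. The gap was at least 1.5 fold in 17 and DESeq2 passed 14. Clspn, the checkpoint adaptor claspin, had 16.9 CPM in each control and 32.4 and 33.8 with the microRNAs, a gap of 1.92 fold (1.74 to 2.13). Cdc7, the kinase that fires origins, had 7.52, 8.03, 16.3 and 14.8 CPM. Mcm2, a subunit of the replicative helicase, had 49.2, 57.6, 90.1 and 129 CPM, and its partner Mcm5 had 52.7, 61.2, 89.7 and 111. The helicase subunits were higher with hsa-miR-199a-3p than with hsa-miR-590-3p, unlike Cdc7. Pcna, the sliding clamp, had 79.5, 79.2, 116 and 158 CPM. Cdt1, which loads the helicase, had 15.9, 17.1, 32.3 and 21.9 CPM, and Gmnn, its inhibitor geminin, had 10.3, 13.2, 17.7 and 25.6. Cdt1 was thus highest with hsa-miR-590-3p and Gmnn with hsa-miR-199a-3p. Uhrf1, which brings the maintenance methylase to replicated DNA, had 49.8, 37.8, 94.5 and 105 CPM, and Dnmt1, that methylase and the most abundant member, had 124, 143, 204 and 271. Unique reads made up 0% of the reads of Uhrf1 and 0.0758% of those of Dnmt1, so both rest on reads shared with other records. Orc2, a subunit of the origin recognition complex, was the exception, with 31.5 and 31.9 CPM in the controls and the mimics on opposite sides of them at 36.9 and 28.3, with 45.4% unique reads.

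Regulators of the entry into S phase lay above the controls in 21 of 26 members and below in 1, with a median log2 ratio of 0.48. E2f2, an activating E2F factor, had 2.59 and 2.63 CPM in the controls, 5.75 with hsa-miR-590-3p and 12.8 with hsa-miR-199a-3p, a gap of 2.18 fold (1.70 to 2.84). E2f1 had 19.5, 23.1, 40.8 and 50.8 CPM. Ccna2, cyclin A2, had 57.3, 67.3, 130 and 171 CPM, and Ccne1, cyclin E1, had 11.5, 13.1, 23.0 and 34.6. The D cyclins, which respond to growth factors, did not share these gaps. Ccnd1 had 117, 142, 143 and 200 CPM, a gap of 1.01 fold that did not hold with TMM. Ccnd2, the most abundant member, had 568, 655, 576 and 488 CPM and was inside the range for hsa-miR-590-3p. E2f5, a repressive E2F factor and the member below the controls, had 7.46, 8.76, 6.04 and 6.99 CPM. Myc had 33, 32.8, 32.5 and 34.6 CPM, with 0% unique reads.

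Inhibitors of the cycle were not uniformly lower. Of 22 inhibitors and pocket proteins 11 lay above the controls (50%) and 2 below (9.09%), against 31.6% and 12.4% of all genes. Cdkn2c, the CDK4 inhibitor p18, had 5.37 and 6.83 CPM in the controls and 12.5 and 18.2 with the microRNAs. Pkmyt1, the kinase that holds CDK1 inactive, had 5.94, 6.68, 12.8 and 12.5 CPM, and Cdkn3, a phosphatase of CDK2, had 4.01, 4.93, 8.45 and 14. These 3 inhibitors lay above both controls under each mimic. Cdkn1a, the inhibitor p21, had 172 and 227 CPM in the controls and 127 and 172 with the microRNAs, with 6.34% unique reads, and was inside the range for hsa-miR-199a-3p. Rb1, the retinoblastoma protein, had 30.2, 22.3, 35.8 and 7.64 CPM, so the mimics lay on opposite sides of the controls. Btg1, an antiproliferative factor, had 116, 118, 100.4 and 95.1 CPM. Targets of p53 were split, with 5 of 23 above (21.7%) and 4 below (17.4%), against 31.6% and 12.4% of all genes. With TMM 4 lay above and 8 below. Their median log2 ratio was 0.01 with library totals and -0.075 with TMM. Among them Ccng1, cyclin G1, had 332, 513, 189 and 271 CPM, below both controls under each mimic.

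Nucleotide synthesis and DNA repair followed replication in part. Of 24 nucleotide genes 16 lay above the controls (66.7%) and 1 below (4.17%). Rrm2, the S-phase subunit of ribonucleotide reductase, had 50.1 and 52.4 CPM in the controls and 86.8 and 112 with the microRNAs. Paics, an enzyme of purine synthesis and the most abundant member, had 193, 210, 184 and 237 CPM, so the mimics straddled the controls. Of 48 repair genes 34 lay above (70.8%) and 2 below (4.17%), with a median log2 ratio of 0.42. Exo1, a nuclease of mismatch repair and end resection, had 6.10, 7.07, 15.3 and 15.5 CPM, a gap of 2.16 fold (1.86 to 2.53). Fanca, of the Fanconi core complex, had 9.54, 10.4, 19.9 and 23.4 CPM. Lig4, the ligase of end joining, had 15.3, 17.7, 12.1 and 13.2 CPM, below both controls.

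Histone genes went in both directions. Of 60 replication-dependent core histone genes 8 had a mean of at least 1 CPM, of which 0 lay above the controls and 5 below (6 with TMM). Hist1h2bc, the most abundant of them, had 17.9 and 14.7 CPM in the controls and 9.67 and 11.4 with the microRNAs. The largest gap among them was that of Hist2h3c1, with 4.96, 4.17, 2.76 and 2.17 CPM and 56.6% unique reads. The 3 clustered linker histones at 1 CPM or more lay on the same side: besides Hist1h1e, Hist1h1c had 71.0, 67.0, 41.4 and 48.9 CPM and Hist1h1d 2.09, 1.96, 0.958 and 1.39. Histone variants and chromatin proteins lay mostly above. H2afx, the variant phosphorylated at DNA breaks, had 25.9, 25, 42.8 and 54.1 CPM, and Hmgb2, a chromatin protein of dividing cells, had 40.1, 46.7, 87.3 and 153. In all 13 of 21 linker histones, variants and high-mobility-group genes lay above the controls and 4 below. Messengers of replication-dependent histones lack a poly(A) tail, and the labels do not say whether poly(A) RNA was selected. Of 24 chromatin regulators of the cycle 21 lay above (18 with TMM) and 0 below, among them Asf1b, a histone chaperone, with 13.9, 16.4, 30.5 and 37.0 CPM and Lmnb1, lamin B1, with 95.7, 107, 184 and 169.

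**Figure D5:**
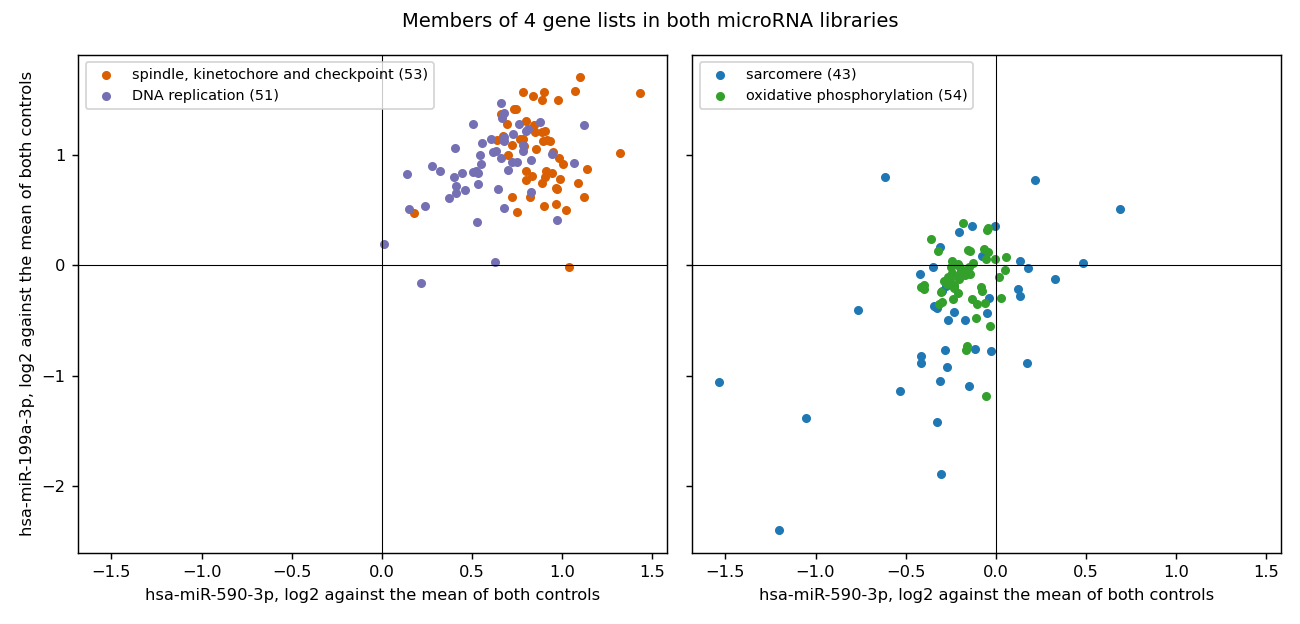
Log2 ratio to the mean of both controls with hsa-miR-590-3p (horizontal) and with hsa-miR-199a-3p (vertical), 1 point per gene, for the spindle and DNA replication lists (left) and the sarcomere and oxidative phosphorylation lists (right). Apart from Sgol1 and Orc2 the first 2 lists lie in the upper right quadrant, with medians of 0.89 and 0.63 along the horizontal and 1.05 and 0.93 along the vertical axis, while the sarcomere genes spread far down and the respiratory genes stay near the origin.

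Since nearly all members of the spindle and replication lists lay on the same side, their promoters were searched for the binding words known for each set: the CHR element of MuvB targets (TTTGAA), E2F sites (TTTCCCGC or TTTGGCGC) and the CCAAT box of NF-Y. The windows run from 250 bases before to 50 after the annotated start (RefSeq, GRCm38.p6), both strands were searched, and 10121 of 13481 genes matched a window. Below are 4 windows of genes above the controls, chosen since their genes are named above and hold these words. Matches on either strand are in capitals (ATTGG is CCAAT on the other strand). Dtl lies at chr1:191575495-191575794 on the minus strand, E2f2 (at 1 of 2 annotated starts) at chr4:136172024-136172323 on the plus strand, Bub1b at chr2:118597961-118598260 on the plus strand and Racgap1 at chr15:99651607-99651906 on the minus strand.
Dtl: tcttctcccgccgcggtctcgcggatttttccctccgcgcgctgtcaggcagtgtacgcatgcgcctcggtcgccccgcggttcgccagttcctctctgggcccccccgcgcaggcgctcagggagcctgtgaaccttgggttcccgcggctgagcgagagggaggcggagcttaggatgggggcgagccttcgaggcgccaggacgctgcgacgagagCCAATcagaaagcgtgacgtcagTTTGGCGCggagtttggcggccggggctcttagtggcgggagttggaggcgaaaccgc
E2f2: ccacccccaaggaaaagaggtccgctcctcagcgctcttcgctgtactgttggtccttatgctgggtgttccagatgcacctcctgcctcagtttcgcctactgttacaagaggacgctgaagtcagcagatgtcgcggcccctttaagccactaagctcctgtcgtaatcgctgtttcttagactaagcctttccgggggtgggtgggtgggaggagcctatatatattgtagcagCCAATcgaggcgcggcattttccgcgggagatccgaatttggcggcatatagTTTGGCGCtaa
Bub1b: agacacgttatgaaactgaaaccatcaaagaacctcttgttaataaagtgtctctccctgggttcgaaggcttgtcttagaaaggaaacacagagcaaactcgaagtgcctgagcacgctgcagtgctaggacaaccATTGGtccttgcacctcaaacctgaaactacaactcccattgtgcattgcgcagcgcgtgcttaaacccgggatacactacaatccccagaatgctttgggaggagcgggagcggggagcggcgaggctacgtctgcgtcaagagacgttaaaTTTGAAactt
Racgap1: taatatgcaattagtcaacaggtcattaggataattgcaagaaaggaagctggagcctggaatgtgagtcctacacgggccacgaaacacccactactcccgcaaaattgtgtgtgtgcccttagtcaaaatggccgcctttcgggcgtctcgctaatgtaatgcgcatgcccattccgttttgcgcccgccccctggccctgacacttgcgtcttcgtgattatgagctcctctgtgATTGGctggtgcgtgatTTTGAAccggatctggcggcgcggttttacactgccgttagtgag

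Dtl and E2f2 each hold an E2F word and a CCAAT box in this window, and Bub1b and Racgap1 each hold a CHR word and a CCAAT box. The window of the other E2f2 start holds a CHR word and CCAAT boxes but no E2F word. Hopx, a gene below the controls described later, holds an E2F word and a CCAAT box at chr5:77115074-77115373. Single windows thus did not sort by direction. Across the lists, TTTGAA was found in 65.1% (28 of 43) of spindle genes with a window, 20% (8 of 40) of replication genes and 14% of all genes tested. The E2F words were found in 32.5% (13 of 40) of replication genes, 9.3% of spindle genes and 3.45% of all. CCAAT was found in 74.4% and 62.5% of the 2 lists and in 43% of all. The 319 genes above the controls by at least 1.5 fold include 80 members of the cell-cycle lists, so their shares are not separate from those of the lists. Of the genes above by 1.5 fold, 30.4% (72 of 237) held TTTGAA, 9.7% an E2F word and 54.4% CCAAT. Of those below by as much 16% (4 of 25), 0% and 40% did. At gaps of at least 25% the shares were 22.7%, 8.6% and 50.5% above and 12.7%, 1.59% and 45.2% below. Over all 32851 windows of the reference table, genes with low or no reads included, the shares were 17.9%, 1.56% and 37.4%. In sarcomere genes the CArG box of serum response factor was found in 20% (7 of 35), against 1.65% of all genes tested. A word looser than the MEF2 site, with any bases allowed in its middle, was found in 22.9% (8 of 35) against 3.8%. The latter shares are therefore not those of MEF2 sites proper. These matches describe the letters of the windows, and no binding was measured.

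Genes of the sarcomere lay below the controls in 23 of 43 members and above in 2 (27 and 2 with TMM, 20 and 3 in unique reads). The median log2 ratio was -0.33, the gap was at least 25% in 7, and DESeq2 passed 4. The cardiomyocyte markers named above include 4 of these members, so this list and the marker sum are not separate measurements. Myl4 and Tnnt1, described above, had the widest gaps. Myom2, an M-band protein, had 754, 776, 530 and 349 CPM, and Mybpc3, cardiac myosin binding protein C, had 3974, 3686, 2875 and 2067. Both were lowest with hsa-miR-199a-3p. Actc1, cardiac actin, had 9883, 9010, 7441 and 7287 CPM. Tnnt2, cardiac troponin T, had 7469, 6812, 4202 and 5394 CPM, with 0.00182% unique reads. Myh6, the adult alpha myosin heavy chain, had 19440, 17830, 14870 and 14270 CPM, with 0.158% unique reads, and its order did not hold in unique reads. Myh7, the fetal beta heavy chain, had 8441, 7358, 6261 and 6057 CPM, with 16.9% unique reads. Both heavy chains thus lay below the controls in total reads, and only Myh7 did in unique reads. Xirp2, an actin-binding protein of the disc, had 157, 73.2, 46.6 and 20.4 CPM with 0.608% unique reads. Not every contractile gene followed: Myl2, the ventricular regulatory light chain, had 3651, 2545, 2778 and 3902 CPM, inside the range for hsa-miR-590-3p, and Myl7, the atrial one, had 72.9, 62.1, 78.1 and 115, above both controls.

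Junction and calcium genes lay partly below the controls, and channel genes lay below about as often as all genes. Of 15 genes of the intercalated disc 5 lay below (33.3%) and 2 above (13.3%). Gja1, the gap junction protein connexin 43, had 1276, 1158, 952 and 546 CPM. Of 30 calcium genes 8 lay below (26.7%) and 7 above (23.3%), against 12.4% and 31.6% of all genes. Ryr2, the calcium release channel, had 1682, 2022, 1226 and 824 CPM, a gap of 0.729 (0.720 to 0.738). Pln, the pump inhibitor phospholamban, had 1543, 1706, 1163 and 621 CPM with 4.08% unique reads, and Atp2a2, the pump itself, had 7539, 6768, 5234 and 5939 with 1.51%. Ppp1r1a, an inhibitor of protein phosphatase 1, was the calcium gene farthest above, with 4.84, 2.28, 9.49 and 8.98 CPM. Of 20 channel genes 3 lay below (15%) and 3 above (15%), the latter 0 with TMM.

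The fetal and hypertrophic genes lay below the controls in 10 of 23 members (43.5%) and above in 4 (17.4%). Besides Nppa, Nppb, the B-type natriuretic peptide, had 296, 278, 219 and 95 CPM, so its distance was mainly that of hsa-miR-199a-3p. Ankrd1, a stress-responsive sarcomere and nuclear protein, had 4637, 4666, 3826 and 2737 CPM. Npr1, the receptor of both peptides, had 2.40, 2.33, 3.25 and 3.79 CPM, above the controls. Of 29 cardiac transcription factors 8 lay above (27.6%) and 4 below (13.8%) with library totals, near the 31.6% and 12.4% of all genes. With TMM 4 lay above and 9 below, so the balance of this list followed the scaling. Nkx2-5, an early cardiac factor, had 109, 108, 125 and 129 CPM. Gata4 had 311, 345, 296 and 312 CPM, inside the range for hsa-miR-199a-3p.

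The 3 genes that the study followed as candidate targets of these microRNAs, known from its publication and named in no label, all lay below the controls. They were chosen on data of this study, so their direction is not independent evidence. Clic5, a chloride intracellular channel protein linked to the cytoskeleton, had 172 and 198 CPM in the controls and 91.6 and 99.2 with the microRNAs, a gap of 0.577 (0.553 to 0.602). Hopx, a homeodomain protein that does not bind DNA, had 212, 296, 158 and 148 CPM with 11.9% unique reads. Homer1, a scaffold at calcium channels, had 37.4, 38.7, 35.1 and 28.4 CPM with 5.27% unique reads, and its gap of 0.938 (0.865 to 1.02) was within counting error.

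Respiratory genes lay below the controls by small amounts. Of 54 nuclear genes of oxidative phosphorylation 29 lay below and 0 above (37 and 0 with TMM), with a median log2 ratio of -0.15 (-0.23 with TMM), and 0 had a gap of 25%. Atp5f1, a stator subunit of the ATP synthase, had 459, 437, 359 and 351 CPM, and Sdhd, a membrane subunit of succinate dehydrogenase, had 247, 256, 204 and 200 with 15.2% unique reads. Atp5b, the catalytic beta subunit and the most abundant member, had 3790, 3265, 3222 and 3572 CPM, inside the range for hsa-miR-199a-3p. The citric acid cycle had 12 of 25 members below (48%) and 1 above (4%), or 18 and 0 with TMM. Fatty acid oxidation had 10 of 34 below (29.4%) and 4 above (11.8%), or 15 and 1 with TMM. Cpt1a, the liver-type carnitine transferase of the newborn heart, had 52.0, 52.5, 61.5 and 70.8 CPM, above the controls. Glycolysis had 6 of 29 below (20.7%) and 5 above (17.2%), against 12.4% and 31.6% of all genes. Gapdh had 3065, 3024, 2797 and 3287 CPM with 2.53% unique reads and the mimics on opposite sides. Mitochondrial ribosomal genes had 11 of 54 above (20.4%) and 9 below (16.7%) with library totals. With TMM they had 2 above (3.7%) and 14 below (25.9%), against 22% and 20.5% of all genes.

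Of 32 genes of cholesterol and fatty acid synthesis 14 lay above the controls (43.8%) and 1 below (3.12%), or 9 and 2 with TMM. The regulators Srebf2, with 141, 157, 198 and 209 CPM, and Srebf1, with 111, 113, 137 and 154, were both above, while Hmgcs1, a target enzyme with 0.479% unique reads, had 16.4, 14.4, 11.2 and 6.99. Cytosolic ribosomal protein genes differed between the mimics: their median log2 ratio to the controls was -0.05 with hsa-miR-590-3p and 0.35 with hsa-miR-199a-3p, and 8 of 60 lay above both controls under both. Rplp0, the most abundant by CPM, had 1055, 1133, 1028 and 1370 CPM. Proteasome genes had 7 of 37 above (18.9%) and 2 below (5.41%), against 31.6% and 12.4% of all genes, or 2 and 6 with TMM. The unfolded protein and integrated stress response had 4 of 33 above (12.1%) and 6 below (18.2%), or 2 and 11 with TMM. Hspa5, the chaperone BiP, had 884, 1100, 960 and 755 CPM with 2.42% unique reads, inside the range for hsa-miR-590-3p.

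Among signalling genes tied to cardiomyocyte proliferation, 9 of 27 Hippo pathway genes lay above the controls (33.3%) and 4 below (14.8%), near the 31.6% and 12.4% of all genes. With TMM 7 lay above and 9 below, so the balance turned over. Birc5, survivin, also a member of the spindle list, had 19.1, 22.1, 38.4 and 60.9 CPM with 16.9% unique reads. Wwc1, the upstream regulator KIBRA, had 20.1, 22.6, 30.9 and 33.1 CPM. Below the controls, the widest gap was that of Ankrd1, the most abundant member, with 4637, 4666, 3826 and 2737 CPM. Lats1, the kinase that holds YAP in the cytoplasm, had 57.3, 64.2, 54.9 and 44.9 CPM, also below. Of 30 neuregulin, insulin-like and fibroblast growth factor genes 10 lay above (33.3%) and 1 below (3.33%), with 7 and 2 under TMM. Igf2, a fetal growth factor, had 170, 142, 225 and 338 CPM with 3.52% unique reads, and Igfbp4, one of its binding proteins, had 73.2, 72.3, 108 and 128. Of 30 actin turnover genes 9 lay above (30%) and 8 below (26.7%), with 5 and 9 under TMM. Among them Pfn2, a profilin, had 36.3, 38.5, 53.6 and 72.4 CPM and Twf1, twinfilin, had 59.2, 75.5, 53.4 and 33.1.

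Of 15 Argonaute and microRNA processing genes 4 lay above (26.7%) and 2 below (13.3%), near the 31.6% and 12.4% of all genes, with 3 and 4 under TMM, among them Dgcr8, partner of Drosha, with 44.2, 44.0, 49.6 and 55.0 CPM. Of 37 interferon-stimulated genes 1 lay outside (2.7%, against 43.9% of all genes). It was Irf1, with 16.8, 12.3, 21.4 and 19.0 CPM and 0.867% unique reads. Of 18 chemokine, cytokine and acute-phase genes 5 lay below (27.8%) and 1 above (5.56%). Ptgs2, the inducible cyclooxygenase, had 33.1, 24.5, 16 and 9.94 CPM, a gap of 0.654 (0.587 to 0.729).

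Genes of the other heart cells did not share 1 direction. Of 24 fibroblast and matrix genes 4 lay above the controls (16.7%) and 8 below (33.3%), against 31.6% and 12.4% of all genes. Col3a1, a fibrillar collagen, had 1275, 1111, 1801 and 1976 CPM, a gap of 1.41 fold (1.39 to 1.43), and Col1a1 had 5016, 4810, 5810 and 6329. Postn, the matrix protein periostin, had 428, 593, 368 and 152 CPM with 2.49% unique reads, and Col5a2, another collagen, had 1586, 1682, 1375 and 1291, so matrix genes of this list lay on both sides. Of 14 smooth muscle and pericyte genes 5 lay above (35.7%, against 31.6% of all genes) and 0 below. Acta2, smooth muscle actin, which young cardiomyocytes and fibroblasts also express, had 2588, 3225, 3494 and 4772 CPM, and Cnn1, calponin, had 55.3, 44.5, 73.5 and 110. Endothelial genes had 5 of 18 above (27.8%) and 0 below, and epicardial genes 2 of 15 above (13.3%) and 1 below (6.67%). Macrophage genes had 0 of 4 above and 2 below, and neural genes 0 of 6 above and 1 below. Of the 9 erythroid genes 0 reached 1 CPM. Of 10 reference genes 3 lay below and 0 above, and Actb had 2314, 2746, 2649 and 2527 CPM, inside the range.

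Hsa-miR-199a-3p was the farther of the mimics in 70% of the genes above the controls and in 71.5% of those below, against 67.7% of all genes tested by the distance from the mean of both controls. At gaps of at least 1.5 fold those shares were 76.2% and 70.3%. The median distance between the mimics, as an absolute log2 ratio, was 0.178 in genes above, 0.198 in genes below and 0.265 over all genes tested, while that between the controls was 0.123, 0.101 and 0.148. The rule itself favours genes in which the controls lie close together, so the smaller distances of members are not a result about them.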

How the data were processed

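RNA was sequenced from 1 culture per condition, 4 libraries in all, prepared with a TruSeq RNA kit, per the labels' protocols. The deposited files give, for each of 36065 transcript records, a count of total and a count of unique gene reads, the record's length and its RPKM, per the file headers. RPKM equals the total reads per kilobase, scaled to the library, in the authors' files, and a second column of expression values repeats it. CASAVA 1.8 and mm8 are listed, per the submitters' processing notes, with no role named. The read mapper was not given in the sources used here. Total reads include reads shared between records, so the share of unique reads is given where it is low.

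Samples were grouped by their titles. Total reads were summed over records per gene symbol (27207 symbols, 6249 with 2 or more records) and divided by library totals. Of 21525 symbols with a read, 8044 lay under a mean of 1 CPM and were left out, the lowest kept having 1.0022 CPM. A count of 0 allows up to 0.0774 to 0.0948 CPM, taking 3 reads as the limit. Gaps used a prior count of 0.5 on the log2 scale, and their 95% intervals are exact conditional binomial (Clopper-Pearson) and cover counting error only. The pooled test was edgeR 4.0.16's quasi-likelihood test (R 4.3.3) with the side as the only term, library totals as offsets, 2 residual degrees of freedom and Benjamini-Hochberg adjustment over all genes tested. P-values measure only the spread between these libraries. DESeq2 1.42.0, TMM and DESeq2 factors, other minimum levels, unique reads, single records, summed RPKM and leaving out each library were alternatives. Python 3.11.15 with numpy 2.4.6, pandas 2.3.3, scipy 1.17.1 and matplotlib 3.10.9 did the rest.

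The members and gene lists were chosen with earlier results of these data known. Named genes lay outside the control range under library totals and TMM with at least 100 reads in the highest library. They were the 15 with the largest gap and the 5 with the smallest p of the pooled test per direction, up to 3 per list and direction, the most abundant member of each list and the 3 candidate targets; members named to illustrate a role, and those not outside the range, were chosen after their values were seen. Symbols of unnamed gene models, of Y-linked genes and of Xist were counted without being named, which left 12 of the 15 in each direction. Several genes meeting this rule are not reported here. Sequences are those of RefSeq (GRCm38.p6).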

Additional observations from a re-analysis of the deposited data

How the results depend on the processing

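The number of genes above both controls (4255) stayed within 1.5 times under TMM, DESeq2 factors, no minimum level, a minimum of 5 CPM, unique reads, single records and summed RPKM. The number below (1668) was 2769 with TMM, 2874 with DESeq2 factors and 2856 with no minimum CPM. Leaving out 1 library gave 5709 to 6835 genes above and 2816 to 4417 below, since fewer values must then lie outside the range. The pooled test (0 calls) gave 21 calls with no minimum CPM, 194 with DESeq2's Wald test, and 0 to 1662 when 1 library was left out, the 1662 without hsa-miR-590-3p; the lone library of a side is then assumed to vary like the other side. For DESeq2 and for no minimum CPM the cause was not tested. Gaps of named genes kept their side and moved little in 107 of 180 under TMM and in 128 under unique reads, moved in 72 and 36, and with a prior count of 5 reads all 180 stayed. A gap (log2) of the sign opposite to the gene's direction means that the ranges of the 2 sides overlapped. Under TMM they overlapped in Rbbp4 (-0.064). In unique reads they overlapped in Aldoa (0.157), Apex1 (0.083), Axl (0.061), Camk2b (-0.065), Dnmt1 (-0.909), Irf1 (-0.381), Myh6 (0.120), Npr3 (-0.093), Ran (-0.270), Rbbp4 (-0.003) and Slc16a3 (-0.613). None of these genes moved to the other side of the controls, and the cause was not tested. For 5 named genes with under 20 unique reads no such value was taken. Counts per list stayed within 1.5 times in 54 of the cases under TMM and 67 under unique reads and moved in 26 and 13. No paired analysis was possible because each condition had 1 library.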

Other observations

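Members of the common response had records of a median length of 2893 bases above the controls and 2694 below, against 2856 over all genes tested. The median GC content of their promoter windows was 62% above and 60% below, against 61%. Genes under a mean of 5 CPM made up 17.8% of all genes tested, 31.3% of those above the controls by at least 1.5 fold and 48.6% of those below by as much, so genes with few reads were more frequent among the widest gaps.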
